A study of Mus musculus with 3 samples.

Results

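The neuregulin and EGF receptor family was represented by 10 genes of the 18038 in the deposited table: the receptors Egfr, Erbb2 and Erbb4, the neuregulins Nrg1, Nrg2 and Nrg4, and the EGF-type ligands Hbegf, Btc, Egf and Areg. They were picked out by gene symbol, with no threshold on their values. RNA had been sequenced from 3 wild-type hearts of the strain C57BL/6J, taken on day 9 after birth, in a study of glutamylated microtubules and the coupling of heart muscle cells after ischemia and reperfusion. The hearts form a single group, numbered 1 to 3, with no treated or mutant samples, so the comparisons are between genes within a heart and of the spread between hearts. The sources used here do not say that the hearts came from separate animals, so the spread between samples that enters the p-values may be technical.

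ErbB receptors are tyrosine kinases that work in pairs. A ligand holding an EGF-like domain, usually cut free from the cell surface by a metalloprotease, brings a pair of receptors together, which then signal through the Ras-ERK and PI3K-Akt pathways. Erbb2 has no known ligand and acts as the partner of the others, while Erbb4 binds neuregulins and Egfr binds EGF-type ligands. In the mouse heart, Nrg1 from endocardial and endothelial cells acts on Erbb2 and Erbb4 of heart muscle cells. That axis is needed for the trabeculae of the embryo, and Erbb2 in heart muscle cells is known for its part in the growth of the heart around birth.

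Totals were 17766501, 18643408 and 18768094 counts in hearts 1, 2 and 3, and 12958 genes (71.8%) reached 1 CPM (a count scaled to a library of 1000000), the minimum used here for detection, in every heart. The 6 cardiomyocyte markers were detected in every heart and summed to 79150, 78050 and 81450 TPM (the deposited FPKM, scaled to the same total). Heart 1 stood apart in genes of airway and lung epithelium, 8 markers of which summed to 1618 TPM in heart 1, 0.840 TPM in heart 2 and 6.59 TPM in heart 3, and of which 0 reached 1 CPM in every heart. Nearly all of the heart 1 sum came from Scgb1a1 (1202 TPM) and Scgb3a2 (411 TPM). Scgb1a1, a secretory protein of airway club cells, had 4096, 1 and 13 counts. Of the 7 such markers tested, 6 passed the test of variation between hearts, against 1.80% of all genes: Epcam, Foxj1, Scgb1a1, Scgb3a2, Sftpa1 and Sftpb. Epcam, Sftpa1 and Sftpb reached the 10-count minimum only through heart 1, where they were high, so their calls are no support. The calls of Scgb1a1 and Scgb3a2 held without the count filter and without heart 2 or heart 3. No call of the list remained without heart 1. Heart 1 also had the highest sum of epicardial markers (152, 108 and 86.7 TPM, with Msln, a mesothelial surface protein, past the threshold). Of the 4 epicardial markers, Wt1 went the other way, with 15.25, 16.94 and 17.61 TPM. Markers of smooth muscle and pericytes were lowest there (757, 1335 and 1604 TPM), and Acta2, smooth muscle actin, passed the threshold. The other marker sums, from heart 1 to heart 3, were 757, 878 and 829 TPM for endothelium, 115, 92.3 and 77.4 TPM for endocardium, 3217, 3271 and 3431 TPM for fibroblasts, 285, 222 and 252 TPM for macrophages and 9258, 9815 and 5957 TPM for red cells. Salivary gland and kidney markers summed to at most 0.200 TPM and thymus markers to at most 1.97 TPM. In whole hearts, fewer cells of a type and less RNA per cell cannot be told apart.

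The part of each ligand that meets the receptor is the EGF-like domain, which is held together by 6 cysteines at set distances. Each of the 7 ligands holds 1 such motif per transcript that has it in the translated coding sequences of GENCODE M21 (GRCm38), and in each the domain is coded by 2 exons that join between cysteines 4 and 5. It spans 36 codons in Areg, Btc and Hbegf, 37 in Egf, Nrg2 and Nrg4, and 40 in Nrg1, where the loop between cysteines 3 and 4 is 13 residues long. The coding sequences of 5 ligands are given 5′ to 3′ with the cysteine codons in capitals, because these letters show both the spacing that unites the family and the split of Nrg1 into a pair of forms. The coordinates run from the first base of the motif to its last and include the intron.
Nrg1, beta form (chr8:31837698-31849398, minus strand): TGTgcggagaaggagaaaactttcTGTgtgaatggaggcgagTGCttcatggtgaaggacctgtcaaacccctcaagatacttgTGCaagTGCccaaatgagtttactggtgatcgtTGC
Nrg1, alpha form (chr8:31838298-31849398, minus strand): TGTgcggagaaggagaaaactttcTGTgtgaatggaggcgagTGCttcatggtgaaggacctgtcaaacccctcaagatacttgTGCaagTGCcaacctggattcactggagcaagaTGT
Nrg4 (chr9:55242177-55280969, minus strand): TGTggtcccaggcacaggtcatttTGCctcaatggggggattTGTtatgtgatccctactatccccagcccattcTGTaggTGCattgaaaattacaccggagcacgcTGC
Btc (chr5:91362421-91366197, minus strand): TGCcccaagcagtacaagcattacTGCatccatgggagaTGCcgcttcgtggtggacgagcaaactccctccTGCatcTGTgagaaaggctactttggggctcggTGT
Egf (chr3:129686322-129690850, minus strand): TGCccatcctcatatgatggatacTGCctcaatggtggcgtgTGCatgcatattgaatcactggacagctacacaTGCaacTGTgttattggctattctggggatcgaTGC
Areg (chr5:91143614-91144364, plus strand): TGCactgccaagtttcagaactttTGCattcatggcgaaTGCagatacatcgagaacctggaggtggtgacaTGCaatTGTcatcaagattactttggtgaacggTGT

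The forms of Nrg1 share their first 94 bases and differ after that, in the exon that codes the last stretch of the domain. The beta form is coded by 8 of the 13 annotated coding transcripts of Nrg1, and the alpha form by 5. Nrg2 likewise has a pair of forms, in 1 annotated transcript each, which are not shown. The deposited counts are per gene, so such forms were not measured apart.

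Of the 10 family genes, 9 reached 1 CPM in every heart, against 71.8% of all genes, and Areg did not. Most were low: the median of the 10 mean levels was 2.89 TPM, against 9.41 TPM over all 18038 genes. Hbegf and Erbb2 had the highest levels of the family and stood above 59.2% and 57.6% of genes, so even they lay near the middle of the genes in the table. The 10 genes together gave 50.6, 48.9 and 45.3 TPM in hearts 1, 2 and 3.

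**Figure D1:**
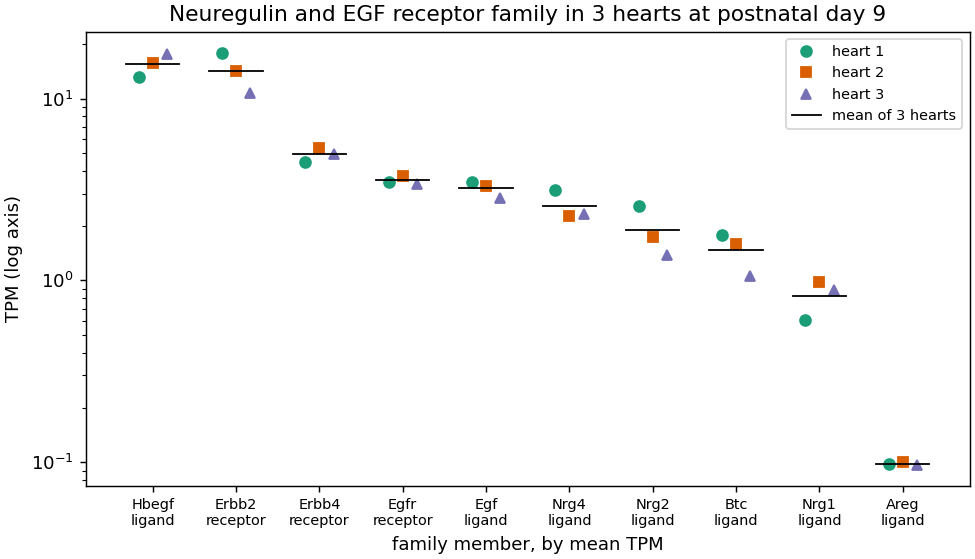
Level of each family gene in each heart, in TPM on a log axis, with genes ordered by mean and marked as receptor or ligand. Points are hearts 1 to 3 and black lines their means. Hbegf and Erbb2 lie between 10.7 and 17.9 TPM, while Areg rests on 1 count per heart.

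Among the receptors, Erbb2 (gene ID 13866, chr11:98412484-98437716, plus strand, GRCm38) had 797, 651 and 511 counts in hearts 1, 2 and 3. These correspond to 17.9, 14.2 and 10.7 TPM, or 14.2 ± 3.58 TPM (SD, n = 3). Erbb2 was thus highest in heart 1 and lowest in heart 3, with a coefficient of variation of 25.1%. Erbb4 (13869, chr1:68031884-69110787, minus strand), the neuregulin receptor of heart muscle cells, had 500, 608 and 600 counts and 4.50, 5.38 and 4.99 TPM, a mean of 4.96 ± 0.443 TPM (SD, n = 3). Egfr (13649, chr11:16752203-16918159, plus strand) had 174, 189 and 187 counts and 3.48, 3.76 and 3.40 TPM, a mean of 3.55 ± 0.189 TPM (SD, n = 3). Erbb4 and Egfr varied little between hearts, with coefficients of variation of 8.94% and 5.32%. Together the receptors gave 22.8 ± 3.41 TPM (SD, n = 3), of which Erbb2 made up 62.6%.

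Erbb2 lay above both ligand-binding receptors in every heart. In the edgeR fits used here, every gene is tested against 1 chosen gene within hearts, per length of transcript, with heart as a block. Since every gene is set against the same one, most genes pass: 82.6% of 15186 genes differed from Erbb2 at an adjusted p under 0.05, so that passing is itself no mark of the family and the size of each difference is what carries information. The Erbb4 level was below that of Erbb2 by -1.99, -1.40 and -1.10 on the log2 scale in hearts 1, 2 and 3, a fitted difference of -1.50 (SE 0.264, 95% interval -2.01 to -0.98, edgeR adjusted p = 2.80e-08). Egfr against Erbb2 gave -2.36, -1.92 and -1.65, fitted -1.98 (SE 0.264, edgeR adjusted p = 1.84e-13). Both gaps were widest in heart 1, where Erbb2 was highest, and narrowest in heart 3. The gap of Egfr was -2.84 with the longest GENCODE transcripts as length. Erbb4 exceeded Egfr by 0.37, 0.52 and 0.55 (fitted 0.48, SE 0.0638, edgeR adjusted p = 0.000271), against a background of 93.4% of genes that differed from Egfr. The size of this difference rested on length, with 1.39 for the longest GENCODE transcripts and 1.63 for no length correction.

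These p-values borrow a spread that is shared over genes, and all genes in a fit share the anchor gene, so they are smaller than 3 hearts alone would give. With each gene's own spread, which leaves 2 degrees of freedom, 7 of the 10 family pairs called (of 11 tested) kept an adjusted p under 0.05, and the Erbb4 to Erbb2 pair gave 0.0501. That pair also rested on length. Erbb4 and Erbb2 had nearly the same number of reads (569 ± 60.2 against 653 ± 143 counts, SD, n = 3), and with no length correction the difference was -0.18 (edgeR adjusted p = 0.522), since the transcript length implied by the deposited values is 12249 bases for Erbb4 and 4918 bases for Erbb2.

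**Figure D2:**
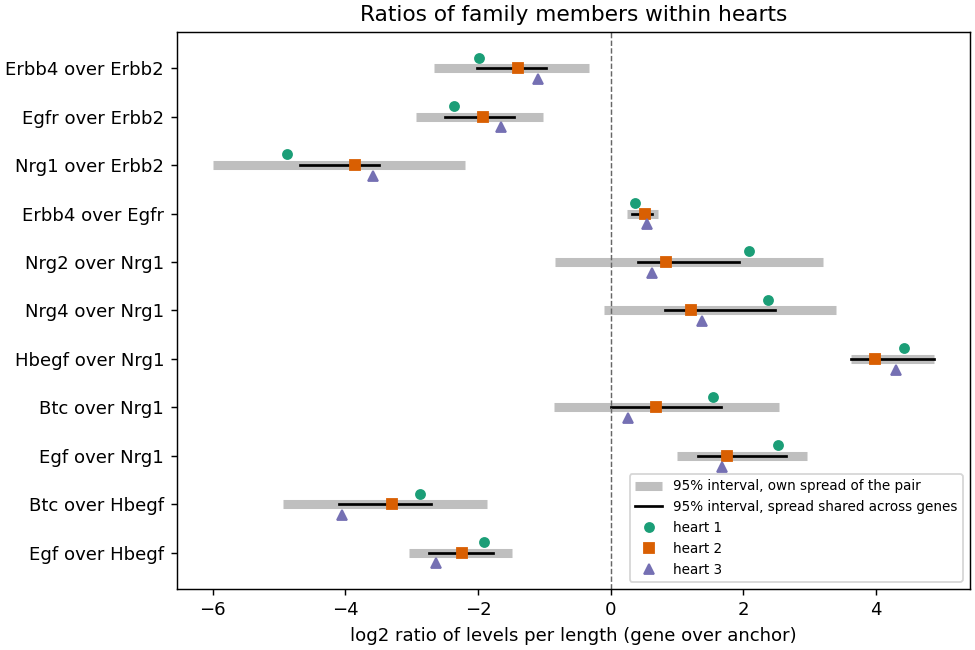
Log2 ratio of TPM for the 11 pairs of family genes tested, by heart (points), with the 95% interval of the fitted value from the spread shared across genes (black) and from each pair's own spread (grey). Hbegf lies about 4 log2 units above Nrg1 in each heart, while Btc over Nrg1 has an interval that starts at 0.

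The neuregulins were the least abundant group by role, with a sum of 6.32, 4.98 and 4.58 TPM in hearts 1, 2 and 3. Nrg4 (83961, chr9:55211468-55283649, minus strand), a ligand of Erbb4 known from brown fat, had 51, 36.0 and 38.1 counts and 3.15, 2.26 and 2.32 TPM, and made up 48.7% of that sum. Nrg2 (100042150, chr18:36014587-36199048, minus strand), a ligand of Erbb3 and Erbb4, had 74, 49 and 45 counts and 2.56, 1.74 and 1.37 TPM. Both were highest in heart 1. Nrg1 (211323, chr8:31809465-33151781, minus strand) had 59, 99 and 96 counts and 0.606, 0.980 and 0.889 TPM, a mean of 0.825 ± 0.195 TPM (SD, n = 3), and was lowest in heart 1. Nrg1 was thus the lowest of the detected family genes by TPM, although more of its reads were counted (84.7 on average) than of Nrg2 (56.0) or Nrg4 (41.7).

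Whether Nrg1 is the lowest neuregulin depends on the length given to it. The length implied by the deposited count and FPKM is 10912 bases, against 5415 bases for the longest GENCODE M21 transcript of the gene. On the deposited values, Nrg2 exceeded Nrg1 by 2.08, 0.83 and 0.63 on the log2 scale in hearts 1, 2 and 3 (fitted 1.18, SE 0.389, edgeR adjusted p = 0.00278), and Nrg4 exceeded it by 2.38, 1.21 and 1.38 (fitted 1.65, SE 0.422, edgeR adjusted p = 0.000113); 90.7% of genes differed from Nrg1. Set per base of the longest GENCODE transcript, Nrg1 came to 2.24 TPM, Nrg2 to 2.66 TPM and Nrg4 to 2.88 TPM, and the differences were 0.23 (edgeR adjusted p = 0.575) and 0.37 (edgeR adjusted p = 0.402). The order of the 3 neuregulins thus rested on the length used. The gap of Nrg1 below Erbb2 was wider, with -4.88, -3.86 and -3.59 in the hearts (fitted -4.10, SE 0.305, edgeR adjusted p = 6.59e-40), and it kept its direction and its call under each alternative run. Its size was -3.06 with the longest GENCODE transcripts and -2.95 with no length correction.

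**Figure D3:**
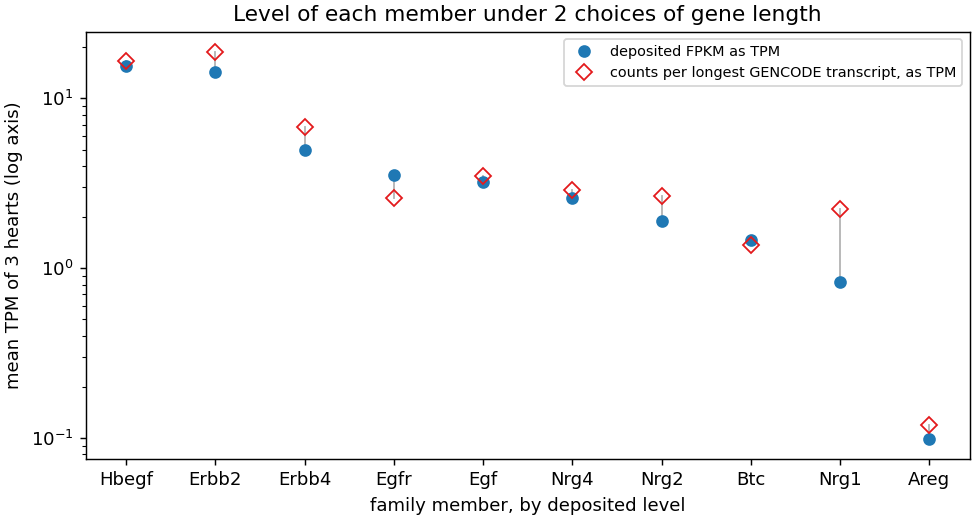
Mean level of each family gene over the 3 hearts, in TPM on a log axis, from the deposited lengths and from the longest GENCODE M21 transcript. With the GENCODE lengths Nrg1 has 2.24 TPM, against 0.825 TPM with the deposited ones, and Egfr has 2.58 TPM, against 3.55 TPM.

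Among the EGF-type ligands, Hbegf (15200, chr18:36504927-36515805, minus strand), a heparin-binding ligand of Egfr and Erbb4 that is needed for heart valve formation in the mouse, had 272, 333 and 393 counts in hearts 1, 2 and 3. Its level was 13.1, 15.6 and 17.6 TPM, a mean of 15.5 ± 2.28 TPM (SD, n = 3). Hbegf was lowest in heart 1 and highest in heart 3, the opposite order to Erbb2. It made up 76.4% of the EGF-type ligands and 60.5% of all 7 ligands, whose sum was 24.8, 25.6 and 26.2 TPM. Egf (13645, chr3:129677574-129755439, minus strand), the founding ligand of Egfr, had 112, 127 and 109 counts and 3.48, 3.30 and 2.84 TPM. Btc (12223, chr5:91357261-91402994, minus strand), betacellulin, which binds Egfr and Erbb4, had 45, 41 and 29 counts and 1.78, 1.58 and 1.06 TPM. Both of these stood far below Hbegf in each heart.

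The gap of Egf below Hbegf was -1.91, -2.24 and -2.63 on the log2 scale (fitted -2.26, SE 0.244, edgeR adjusted p = 5.14e-20), and that of Btc was -2.88, -3.30 and -4.05 (fitted -3.40, SE 0.351, edgeR adjusted p = 1.06e-21), beside a background of 86.8% of genes that differed from Hbegf. Both gaps were narrowest in heart 1 and kept their calls under each alternative run, that of Egf being -1.51 with no length correction. Hbegf exceeded Nrg1, the other well-known cardiac ligand, by 4.43, 3.99 and 4.31 (fitted 4.24, SE 0.320, edgeR adjusted p = 8.42e-40), and the call held under each alternative, although the difference was 2.90 with the longest GENCODE transcripts and 1.99 with no length correction. Egf exceeded Nrg1 by 2.52, 1.75 and 1.68 (fitted 1.98, SE 0.338, edgeR adjusted p = 6.58e-09), a call that ended with the longest GENCODE transcripts (0.67, edgeR adjusted p = 0.051). Btc over Nrg1 gave 1.55, 0.69 and 0.26, and its fitted 0.84 did not pass (95% interval 0 to 1.67, edgeR adjusted p = 0.054). Areg (11839, chr5:91139599-91148432, plus strand), amphiregulin, a ligand of Egfr, had 1 count in each heart. The exact 95% Poisson interval of 1 count reaches 5.57 counts, or 0.557 TPM in the heart where that bound is highest, and covers counting error only. Areg was left out of the tests by the filter on low counts.

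By mean level the family ran Hbegf, Erbb2, Erbb4, Egfr, Egf, Nrg4, Nrg2, Btc, Nrg1 and Areg. In 5 of the 9 neighbouring steps in that order the TPM ranges over the hearts overlapped, with the genes not paired by heart. The ranges of Hbegf and Erbb2 overlapped, as did each step between Egfr and Egf, Egf and Nrg4, Nrg4 and Nrg2, and Nrg2 and Btc. Within hearts, Egf over Nrg4 (mean log2 ratio 0.33, SD 0.20), Nrg4 over Nrg2 (0.48, SD 0.25) and Nrg2 over Btc (0.34, SD 0.19) were higher in each of the 3 hearts. Hbegf over Erbb2 and Egfr over Egf were higher in 2. These 5 steps were not tested. The ranges were separate between Erbb2 and Erbb4, between Erbb4 and Egfr, between Btc and Nrg1, and between Nrg1 and Areg. Btc over Nrg1 still did not pass its paired test (edgeR adjusted p = 0.054). With the longest GENCODE transcripts Erbb2 came first (18.9 TPM) and Hbegf next (16.5 TPM), and Egfr dropped to place 7.

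Strand and overlap may limit some of these counts. The overlaps given are of whole gene spans, introns included, and whether they touch counted bases was not tested. In GENCODE M21, Nrg4 overlaps the coding gene Fbxo22 on the opposite strand over 4212 bases, and Erbb2 overlaps Mien1 over 9 bases. Noncoding RNA genes on the opposite strand lie across parts of Egfr, Egf, Nrg2 and Nrg1. Within Erbb4 lie 8 noncoding, unclassified or pseudogene entries on the same strand, the longest overlap being 14828 bases with Gm16076, and no strand setting would separate their reads from intronic Erbb4 reads. The strand setting of the counting is not given in the sources used here, so reads of such partners cannot be told apart. The strands named above are those of GENCODE; the deposited table lists Nrg1, Nrg2 and Egf on the plus strand, as it differs from GENCODE for 15.0% of 17373 genes.

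Between hearts, 0 of the 9 family genes tested passed an edgeR goodness-of-fit test of variation beyond the spread typical of genes at their level, where 1.80% of 15187 genes did (274 genes). At an unadjusted p under 0.05 the count was 1 of 9, Erbb2 (edgeR goodness of fit, unadjusted p = 0.0325, edgeR adjusted p = 0.666), against 894 of all 15187 genes tested. Set against counting noise alone, 5 of 9 varied, against a background of 42.8%: Erbb2 (edgeR adjusted p = 1.67e-14), Hbegf (0.000223), Nrg1 (0.0103), Erbb4 (0.0177) and Nrg2 (0.0256). Egfr, with an edgeR adjusted p of 0.877 on that test, was far from the threshold.

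The differences had no common direction: on normalised CPM, Nrg1, Hbegf, Erbb4 and Egfr were lowest in heart 1, while Nrg2, Nrg4, Btc and Erbb2 were highest there. The airway, endocardial, epicardial and macrophage marker sums were also highest in heart 1, and their part in the higher values was not tested. Among those markers, Nfatc1 of the endocardial list (17.93, 22.28 and 18.87 TPM) and Wt1 of the epicardial list were lowest there. Leaving out heart 1 changed none of the 11 pair calls.

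The wider pathway was read from 5 gene lists. Of the ligands and receptors outside the 10, Erbb3, a neuregulin receptor whose own kinase is nearly inactive, had 111, 147 and 107 counts (3.11, 4.0 and 2.80 TPM), close to Egfr. Tgfa, a ligand of Egfr, had 2.64, 2.12 and 1.84 TPM. Ereg, Epgn and Nrg3, the remaining ligands, were not detected, with 8, 8 and 7 counts for Ereg, 4, 3 and 6 for Epgn, and 1, 0 and 0 for Nrg3. The list's median was 0.287 TPM. At an adjusted p under 0.05, 0 of its 4 genes tested varied beyond the typical spread (edgeR), against 1.80% of all genes. At an unadjusted p under 0.05 the count was also 0, against 894 of all 15187 genes tested.

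The list of proteases that release the ligands and of related genes, Rhbdf1 and Rhbdf2, had a median of 26.4 TPM, above the mean level of each of the 7 ligands. Of the 12 genes of that list in the deposited table, 11 were detected, where 71.8% of all genes were. None of the 12 passed the test of variation between hearts (edgeR), against 1.80% of all genes. At an unadjusted p under 0.05 there was 1, Adam8, against 894 of all 15187 genes tested. Adam15 had the highest level (90.6 ± 1.62 TPM), followed by Adam19, a protease of neuregulins (67.7 ± 7.14 TPM), Adam10, which releases Egf and Btc (48.0 ± 4.86 TPM), and Adam9 (41.9 ± 4.73 TPM; SD, n = 3 each). Adam17, the main protease of Hbegf and Areg, named for that role after its values were seen, had 21.7, 25.1 and 23.9 TPM. Rhbdl2, a rhomboid protease, was not detected, with 11, 6 and 7 counts.

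Of 30 adaptors and kinases downstream of the receptors, 29 were detected, where 71.8% of all genes were, and the median was 37.9 TPM. Beyond the typical spread, 0 of 29 tested varied (edgeR), against 1.80% of all genes. The count was also 0 at an unadjusted p under 0.05, against 894 of all 15187 genes tested. The highest were Akt1 (350 ± 20.3 TPM) and Akt2 (152 ± 6.72 TPM), kinases of the PI3K branch, then Mapk3, an ERK kinase (143 ± 1.53 TPM), and Grb2, the adaptor that links receptors to Ras (110 ± 3.12 TPM; SD, n = 3 each). Grb7, an adaptor of Erbb2 whose gene lies beside it, was not detected, with 7, 0 and 1 counts. Among 16 coreceptors and chaperones the highest were Hsp90ab1 (1145 ± 35.7 TPM), Cd81 (623 ± 33.2 TPM), Hsp90aa1 (169 ± 12.5 TPM) and Cdc37 (151 ± 6.09 TPM; SD, n = 3 each), of which Hsp90 and Cdc37 keep Erbb2 stable. In that list 15 genes were detected and 1 of 16 passed the test of variation, Muc4, an epithelial mucin that binds Erbb2. Muc4 had 43, 3 and 6.36 counts (edgeR adjusted p = 0.00366), highest in the heart with the airway genes. It was under 1 CPM in hearts 2 and 3 (0.161 and 0.339 CPM, against 2.42 CPM in heart 1). Muc4 reached the count minimum only through heart 1, where it was high, so the call with that filter is no support. The call held without the count filter (edgeR adjusted p = 0.00556) and without heart 3 (0.0162). It ended without heart 1 (0.999) and without heart 2 (0.156).

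The feedback inhibitors, genes that ERK signalling of many receptors induces and that damp it again, numbered 26 in the table. They had a median of 13.8 TPM, and 25 of them were detected, where 71.8% of all genes were. Of 25 tested, 2 varied beyond the typical spread (8.0%, against 1.80% of all genes), Dusp6 and Spry4. Spry1 and Errfi1 had only an unadjusted p under 0.05. With Dusp6 and Spry4 that makes 4 of 25, against 894 of all 15187 genes tested. Dusp6, the phosphatase of ERK, had 398, 698 and 830 counts and 16.2, 27.6 and 31.4 TPM in hearts 1, 2 and 3 (edgeR adjusted p = 0.0184). Spry4, a Sprouty inhibitor of Ras signalling, had 308, 460 and 659 counts and 7.53, 10.9 and 15.0 TPM (edgeR adjusted p = 0.0308). Both were lowest in heart 1 and highest in heart 3. Both calls ended when any 1 heart was left out, with edgeR adjusted p of 0.999, 0.0676 and 0.230 for Dusp6 and 0.255, 0.0573 and 1 for Spry4 without hearts 1, 2 and 3.

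Other genes of the list were also lowest in heart 1 without passing the test. Spry1, which had the highest level of the list, gave 41.4, 53.8 and 63.8 TPM (edgeR adjusted p = 0.52). Errfi1, an inhibitor that binds Egfr and Erbb2 directly and is named here after its values were seen, gave 15.0, 22.2 and 26.4 TPM (edgeR adjusted p = 0.17). In all, 19 of 25 feedback genes (76.0%) were lowest in heart 1, against 37.9% of the 15187 genes tested, and their median log2 difference on normalised CPM was 0.21 for heart 3 over heart 1 and 0.26 for heart 2 over heart 1, against 0.00 for all genes. Hbegf had the order of hearts of Dusp6 and Spry4 (13.1, 15.6 and 17.6 TPM), and Erbb2 the reverse, but neither Hbegf nor Erbb2 passed the test of variation. Markers outside the pathway, such as Actc1 and Acta2, also had the order of Dusp6 and Spry4. The share of all genes with that order was not counted, and a link between these genes was not tested. Spry2 (40.6 ± 2.04 TPM), Ptpn12 (32.6 ± 3.57 TPM) and Rasa1 (32.6 ± 2.87 TPM; SD, n = 3 each), the next highest of the list, did not pass the test, and Spry3 was not detected, with 3, 4 and 2 counts. In heart 1 the smooth muscle markers were also lowest, while the airway genes were highest, and the part of either in the values of this list was not tested.

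**Figure D4:**
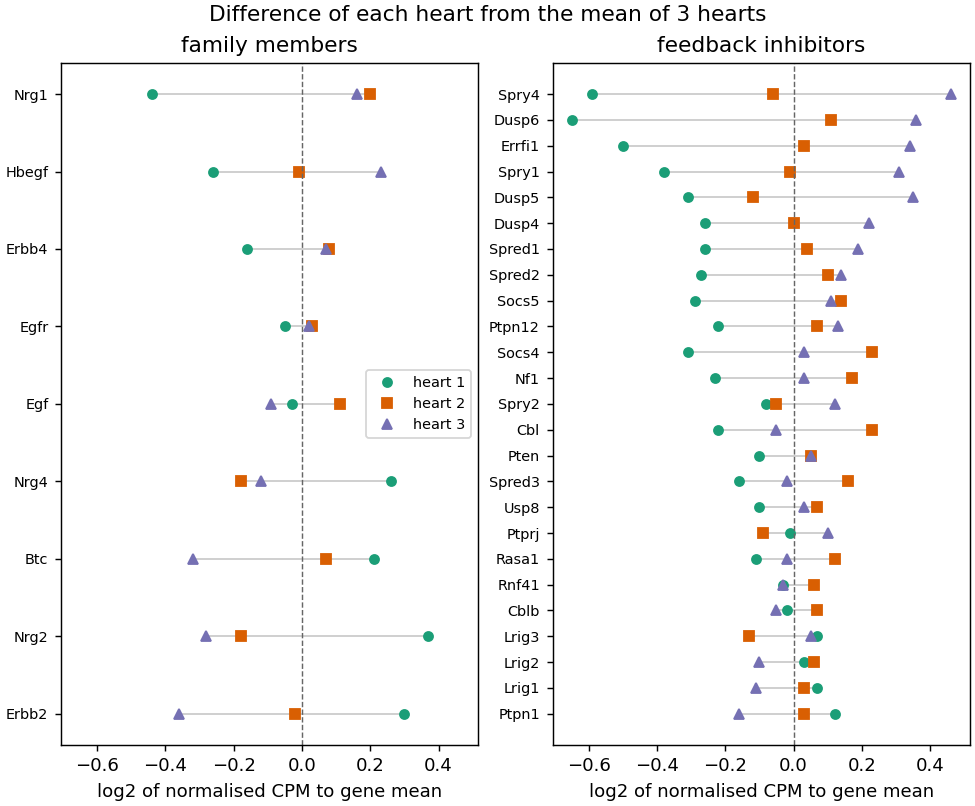
Differences between hearts, on normalised CPM as log2 values relative to the mean of the 3 hearts, for the 9 family genes tested (left) and 25 feedback inhibitors (right). Erbb2 is highest in heart 1 and lowest in heart 3, Hbegf is lowest in heart 1 and highest in heart 3, and 19 of the 25 feedback genes have their lowest value in heart 1.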

How the data were processed

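Total RNA had been extracted with Trizol from 3 hearts and made into DNBSEQ libraries, per the labels' protocols. The submitters' processing notes name the aligner HISAT, with no version, and the build GRCm38.p6. Not given in the sources used here: the counting tool, the annotation and the strand setting. The deposited expected counts, per the file headers, are read counts for each gene in each heart that the authors made with a step not recorded in the labels. Of these, 87.5% to 87.6% were within 0.005 of a whole number, and all were rounded for tests. The deposited FPKM, also made by the authors, were rescaled here to TPM (a sum of 1000000 per heart) with no pseudocount. Of the table, 1 line without values was left out, and 2 columns of the authors' means were not used. Over all genes together, each pair of hearts differed beyond sampling noise (chi-square per degree of freedom 9.70 to 23.7), so each heart is 1 sample. All samples belong to 1 group, so replicate numbers pair nothing across groups, and the pairing used is of genes within a heart.

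Ratios between genes were tested with edgeR 4.0.16 (R 4.3.3, quasi-likelihood, two-sided): each gene against an anchor gene, heart as a block, TMM scaling, lengths implied by the deposited counts and FPKM, genes with at least 10 counts in total, and Benjamini-Hochberg adjustment over all genes tested against that anchor. Of 13 pairs 11 could be tested. Variation between hearts was tested by negative binomial deviance at edgeR's trended dispersion. An exact sign-flip test over 3 hearts cannot go below p = 0.25. Alternatives were DESeq2 1.42.0, other size factors, filters, lengths from GENCODE M21 (found for 96.3% of genes), other dispersions, no heart block and leaving out each heart. The own-spread test was chosen after seeing the data. The code was checked on simulated data, and floors cover counting error only.

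The members, pairs and lists were chosen with earlier results of these data known. Named genes are all members and, of each pathway list, the 4 highest by mean TPM, those not detected and those that varied between hearts. Of marker lists, summed TPM and the members that varied are given, except for 1 list that is not reported here. Figures were drawn with matplotlib 3.10.9.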

Additional observations from a re-analysis of the deposited data

How the results depend on the processing

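Of 110 values of family pairs under alternative settings, 97 kept their direction and their side of the threshold. These include each one with DESeq2, without the count filter and with a heart left out. They also include each one with median-ratio size factors, which could not move a pair. A size factor cancels between genes of the same heart, so that setting is no check. With no length correction, Erbb4 over Erbb2 was -0.18 (edgeR adjusted p = 0.522), Nrg2 over Nrg1 -0.60 (0.133), Nrg4 over Nrg1 -1.0 (0.0184), Btc over Nrg1 -1.13 (0.00952) and Egf over Nrg1 0.48 (0.158). The longest GENCODE transcripts gave 0.23 (0.575) for Nrg2, 0.37 (0.402) for Nrg4, -0.70 (0.112) for Btc and 0.67 (0.051) for Egf over Nrg1. Each of these follows from the lengths entered, so pairs with Nrg1 compare levels only as far as its length of 10912 bases holds. With each gene's own spread, Erbb4 over Erbb2 (-1.50, edgeR adjusted p = 0.0501), Nrg2 over Nrg1 (1.18, 0.143) and Nrg4 over Nrg1 (1.65, 0.0661) no longer passed. Without the heart block Btc over Nrg1 passed (0.83, 0.0313). No paired analysis of groups was possible because the hearts form a single group. Without the count filter, Areg, with 3 counts in all, gave -3.06 against Nrg1 (edgeR adjusted p = 0.000772) and -7.30 against Hbegf (1.89e-23). At 5 CPM in every heart 5 family genes were detected, in place of 9. The 274 genes that varied between hearts became 413 with a common dispersion, 6504 against counting noise alone, and 116 to 148 with 1 heart left out, where fewer samples enter. The calls of Dusp6 (0.0635) and Spry4 (0.0576) also ended with a common dispersion. Depth limits Areg, Btc and Nrg4, with under 60 counts in each heart.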

Other observations

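The deposited table carries its own pathway annotation, in which 86 genes are assigned to ErbB signalling. This set was looked at after the values of the family had been seen. Leaving out the 10 family genes, 76 remain, of which 72 were detected in every heart, where 71.8% of all genes were. Their median was 26.3 TPM, against 9.41 TPM over all genes in the table. Of 75 tested, 1 varied between hearts beyond the typical spread (1.33%, against 1.80% of all genes). That gene was Jun, part of the AP-1 transcription factor and an early response gene, with 1128, 1704 and 2588 counts and 40.1, 58.9 and 85.8 TPM in hearts 1, 2 and 3 (edgeR adjusted p = 0.000461). Jun was lowest in heart 1 and highest in heart 3, an order whose share over all genes was not counted. In the annotated set as a whole, 44.0% of genes were lowest in heart 1, against 37.9% of all genes tested.

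Muc1, an epithelial mucin known to bind Egfr and Erbb2, is named after its values were seen. It had 73, 21 and 21 counts and 3.73, 1.04 and 1.01 TPM in hearts 1, 2 and 3, highest in the heart with the airway genes. Its variation did not pass the test over all genes (edgeR goodness of fit, unadjusted p = 0.00239, edgeR adjusted p = 0.105).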
